A study of Homo sapiens with 4 samples.

Results

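The genes described here are TOP2B, its chromosome 3 neighbours RARB, NGLY1 and OXSM, and 6 further genes of retinoid signalling: RARA, RARG, RXRA, RXRB, DHRS3 and CRABP2. These 10 genes were chosen by name, for their position beside TOP2B or their role in retinoid signalling, out of 60656 genes listed in the count files. All 10 were among the 19103 genes that passed the filter on low counts.

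Newly made RNA was measured by TTchem-seq, in which living cells take up 4-thiouridine, a modified uridine, and the labelled RNA is fragmented, purified and sequenced. The cells were HCT116, an established line from a human colorectal carcinoma. The DKO libraries came from a line in which both TOP2A alleles carry mAID, a tag that lets auxin trigger destruction of the protein, and in which TOP2B was deleted with CRISPR/Cas9 (TOP2A mAID/TOP2B -/-). DKO cells received 500 µM auxin for 8 h, a treatment described as removing up to 95% of TOP2A. The WT libraries are labelled wildtype, whereas the treatment protocol names the TOP2A mAID line beside the DKO line. It names auxin for the DKO line only. Every culture was held in G1 with 2 µM palbociclib for 28 h and labelled with 1 mM 4-thiouridine for 30 min. Loss of both enzymes, auxin and the difference between the lines therefore separate the groups together and cannot be told apart, and neither the number of knockout clones nor the allele made by the deletion is given in the sources used here. Each group has 2 libraries, and nothing in the labels says that they came from separate cultures, so p-values measure only the spread between these libraries. In such bulk libraries, fewer cells that transcribe a gene and less RNA per cell cannot be told apart.

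Total counts were 53000795 and 53777749 in DKO and 51718468 and 51142867 in WT. Levels are given as CPM, a count scaled to the library total after adjustment of that total by TMM factors, and a difference as the log2 fold change of DKO over WT with its standard error. A gene was called where the Benjamini-Hochberg adjusted p of edgeR's quasi-likelihood test, over all tested genes, was under 0.05. By that rule 40.1% of all tested genes were called, 19.0% higher in DKO and 21.1% lower. The median log2 fold change of all tested genes was -0.01.

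Retinoic acid is made in cells from vitamin A (retinol) by dehydrogenases and is carried by small binding proteins. In the nucleus it binds the retinoic acid receptors RARA, RARB and RARG, which pair with the retinoid X receptors and sit on DNA at repeated hexamers called retinoic acid response elements. RARB is a classical target of this pathway, because such an element lies in its P2 promoter, and its loss of expression is well known in carcinomas. TOP2B, a type II topoisomerase not confined to dividing cells, lies tail to tail with RARB. It has been studied as a factor in transcription induced by nuclear receptors.

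RefSeq gives promoter windows for 9 of the 10 genes, 20 windows in all, each running from 250 bases before to 50 after a gene's start (build GRCh38.p14). They were searched on both strands for hexamer half-sites, taken as AGGTCA (the consensus of textbooks), GGTTCA and its neighbour AGTTCA (both from the known RARB element) or the further variant GGGTCA, and for 2 of them in the same direction separated by 1, 2 or 5 bases (the repeats known as DR1, DR2 and DR5). Since GGTTCA and AGTTCA come from that element, the search had to find it, and it is the DR5 in 1 of the 4 RARB windows, at chr3:25428013-25428312 on the plus strand, from 53 to 37 bases before the start. No other of the 20 windows held a repeat. Of 35116 RefSeq windows of the same length, 0.0883% hold a DR5, 0.131% a DR1, 0.0399% a DR2 and 38.6% at least 1 half-site. The window is shown because its element is the textbook response element, with its 2 hexamers in capitals.
RARB: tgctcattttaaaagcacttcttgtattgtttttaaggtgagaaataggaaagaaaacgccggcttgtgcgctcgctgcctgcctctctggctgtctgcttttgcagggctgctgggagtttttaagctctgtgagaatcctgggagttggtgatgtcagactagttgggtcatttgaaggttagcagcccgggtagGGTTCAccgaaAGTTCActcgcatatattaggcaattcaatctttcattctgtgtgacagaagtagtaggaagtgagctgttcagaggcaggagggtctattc
CRABP2 was the member with the largest difference among those with over 100 counts in every library. Its single window, at chr1:156705735-156706034 on the minus strand, holds 1 half-site (capitals) and no repeat.
CRABP2: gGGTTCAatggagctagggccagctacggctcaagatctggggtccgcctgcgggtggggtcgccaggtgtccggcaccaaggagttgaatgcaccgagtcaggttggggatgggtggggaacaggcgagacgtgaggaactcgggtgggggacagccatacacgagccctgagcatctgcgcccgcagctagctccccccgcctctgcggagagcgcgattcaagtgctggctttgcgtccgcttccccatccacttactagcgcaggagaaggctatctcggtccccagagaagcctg
NGLY1 was called higher and OXSM was not called, and their annotated spans lie 50 bases apart. Whether these 2 genes differ in response was not tested. The NGLY1 window at chr3:25789990-25790289 on the minus strand covers both ends, with the 50 bases between the spans in capitals, and holds no half-site.
NGLY1: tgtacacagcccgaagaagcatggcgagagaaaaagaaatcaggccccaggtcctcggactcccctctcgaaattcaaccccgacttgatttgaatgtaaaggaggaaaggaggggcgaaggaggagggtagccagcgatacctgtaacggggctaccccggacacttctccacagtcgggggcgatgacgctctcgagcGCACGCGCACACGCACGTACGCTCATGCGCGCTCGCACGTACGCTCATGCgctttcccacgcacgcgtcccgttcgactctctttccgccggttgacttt
A half-site occurred in 8 of the 20 windows, and no match says only that these letters are not in a window.

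Of the 10 genes, 2 were called higher in DKO (RARB and NGLY1), 2 lower (RARA and CRABP2), and 6 were not called, beside 19.0% and 21.1% of all tested genes. RARB passed the low-count filter only through the DKO libraries, where it is higher, so its place in this count is a description. The median log2 fold change of the 10 genes was -0.03.

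**Figure D1:**
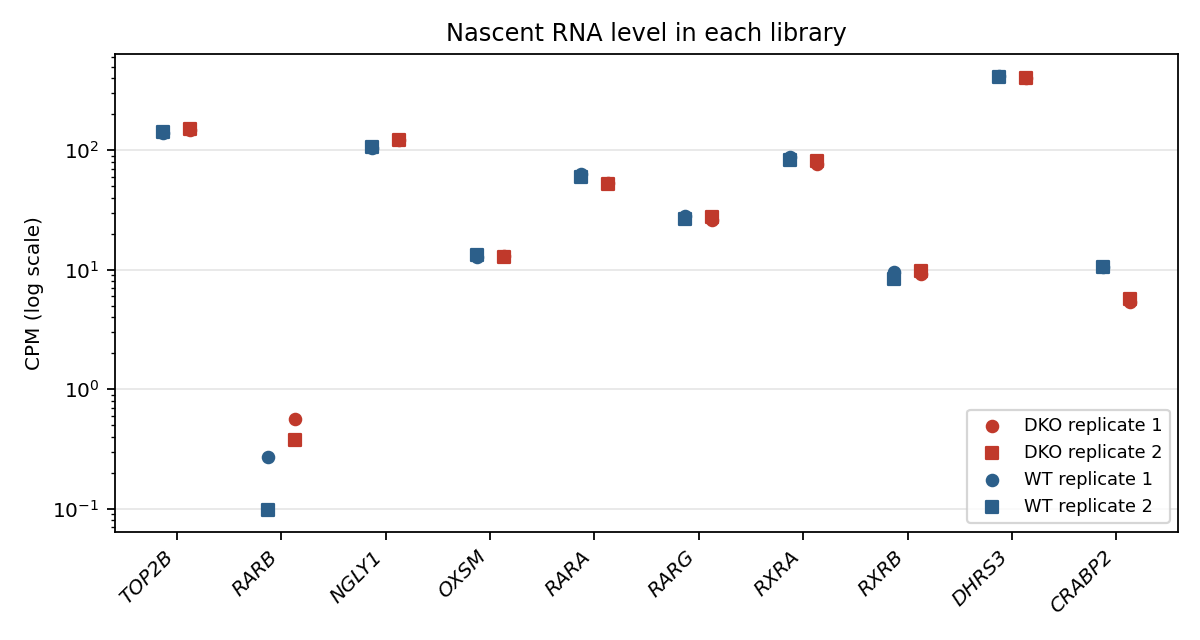
CPM of the 10 genes in each library, on a log axis, with WT in blue, DKO in red, circles for replicate 1 and squares for replicate 2. CRABP2 lies at 5.33 and 5.72 CPM in DKO against 10.6 in both WT libraries, and RARB lies below 1 CPM in every library.

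TOP2B is the gene deleted in the DKO line, and it spans 67.0 kb of the minus strand (chr3:25597905-25664907). It gave 7852 and 8000 counts in DKO against 7264 and 7303 in WT. That is 147.5 and 150.0 CPM against 140.1 and 143.0, so both DKO libraries lay above both WT libraries. The log2 fold change was 0.07 ± 0.05 with a 95% interval from -0.02 to 0.16, and it was not called (edgeR adjusted p = 0.223). Of all tested genes, 78.7% had a larger absolute difference. A count summed over a gene does not show a small deletion, so these counts neither check the genotype labels nor say whether protein was made.

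RARB, the receptor gene whose annotated span runs through chr3:24829321-25597932 on the plus strand, overlaps the 3′ end of TOP2B by 28 bases. Over its 768.6 kb it gave 30 and 20 counts in DKO against 14 and 5 in WT, or 0.563 and 0.375 CPM against 0.270 and 0.0979. The groups did not overlap, but 1 WT library was under 10 counts, so RARB passed the low-count filter only through the DKO libraries. The log2 fold change was 1.33 ± 0.38 (95% interval 0.58 to 2.09, edgeR adjusted p = 0.00258). This call rests on few reads. It was lost without DKO replicate 1 (1.01, adjusted p = 0.126), without WT replicate 1 (2.23, adjusted p = 0.0752) and without WT replicate 2 (0.79, adjusted p = 0.246), and held only without DKO replicate 2.

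The strand setting of the counting is not given in the sources used here, so reads in the shared 28 bases cannot be assigned to RARB or TOP2B. For each 100 TOP2B counts there were 0.382 and 0.250 RARB counts in DKO and 0.193 and 0.0685 in WT, a ratio of counts and not of levels. What share of them, if any, came from TOP2B transcripts running past their end was not tested. TOP2B also holds the miRNA gene MIR4442, which had 0 counts.

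NGLY1, the cytosolic enzyme that strips N-glycans from misfolded glycoproteins, lies 54.04 kb from TOP2B on its 5′ side (chr3:25718944-25790039, minus strand). It gave 122.2 and 120.7 CPM in DKO and 104.0 and 106.2 in WT. Both DKO libraries lay above both WT libraries, with a log2 fold change of 0.21 ± 0.05, or 1.16-fold (edgeR adjusted p = 8.93e-05). Of all tested genes, 47.6% had a larger absolute difference. The call was lost without WT replicate 1 (0.19) and without WT replicate 2 (0.22). In both of these fits fewer of all tested genes were called too.

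OXSM, the mitochondrial ketoacyl synthase of fatty acid synthesis, begins 50 bases from NGLY1 (chr3:25790090-25794531). Its levels were 13.13 and 12.68 CPM in DKO and 12.84 and 13.29 in WT, and the groups overlapped. The log2 fold change was -0.02 ± 0.08 (95% interval -0.18 to 0.14, edgeR adjusted p = 0.882). The ratio of NGLY1 to OXSM counts, which depends on gene length but can be compared between libraries, was 9.31 and 9.52 in DKO and 8.10 and 7.99 in WT. A difference between the responses of these neighbours was not tested.

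**Figure D2:**
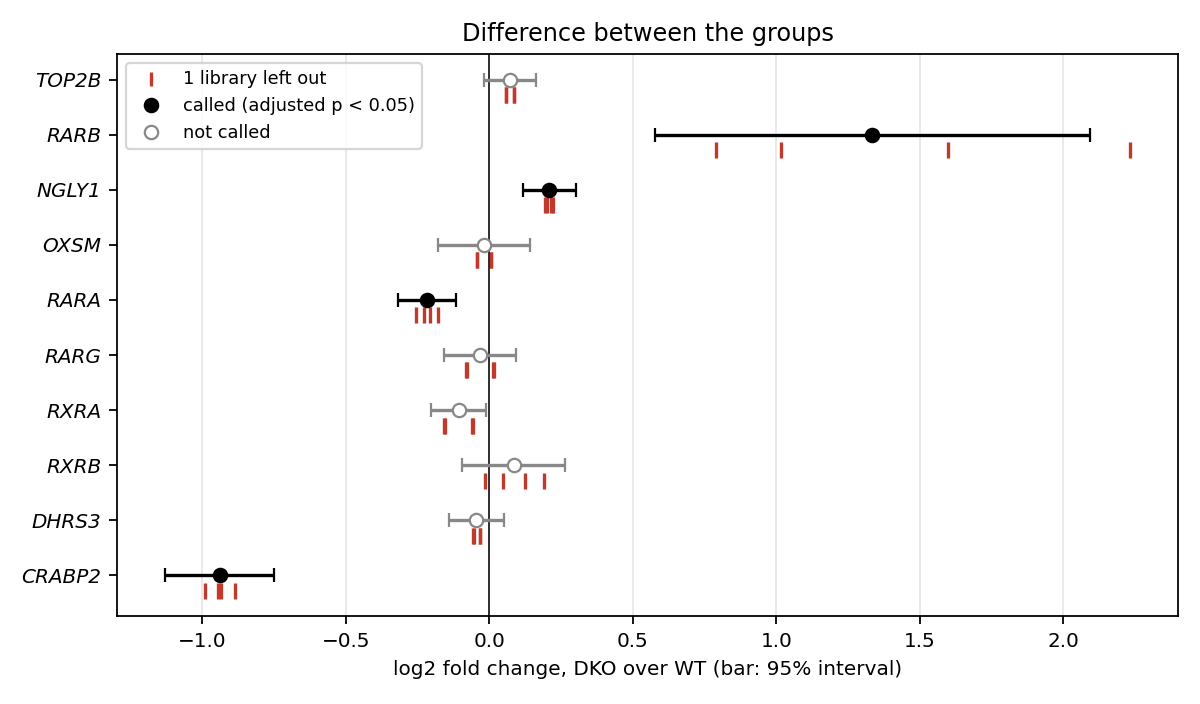
Log2 fold change of DKO over WT for the 10 genes with 95% intervals (filled points called, open points not called), and red ticks for the value with each library left out. RARB has the widest interval, 0.58 to 2.09, and CRABP2 is the gene farthest below 0, at -0.94.

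Among the retinoic acid receptors, RARA was called lower. It lies on the plus strand at chr17:40309180-40357643, 30.88 kb from TOP2A, the gene that carries the degron tag. Its levels were 53.5 and 52.6 CPM in DKO and 63.3 and 60.0 in WT, without overlap. RARA differed by a log2 fold change of -0.22 ± 0.05 (edgeR adjusted p = 0.000236), and the call was lost without WT replicate 1 (-0.18, adjusted p = 0.106). The antisense gene RARA-AS1, which overlaps RARA by 2270 bases, had only 9 to 14 counts.

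RARG (chr12:53210569-53232209, minus strand), the third receptor of the family, overlapped between the groups. It gave 25.99 and 27.58 CPM in DKO against 28.31 and 26.47 in WT, a log2 fold change of -0.03 ± 0.06 (95% interval -0.16 to 0.09, edgeR adjusted p = 0.727). Its sign turned with upper quartile scaling (0.003). The CPM of RARA, RARB and RARG summed to 80.08 and 80.53 in DKO and to 91.91 and 86.59 in WT. This sum is not scaled to gene length.

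The shared partner receptors were not called. RXRA (chr9:134326455-134440585, plus strand) gave 76.33 and 81.68 CPM in DKO and 87.84 and 82.36 in WT, so both DKO libraries lay below both WT libraries. The log2 fold change was -0.11 ± 0.05 (95% interval -0.20 to -0.01, edgeR adjusted p = 0.0689), and without DKO replicate 2 it was called (-0.16, adjusted p = 0.0151). RXRB (chr6:33193588-33200853, minus strand) overlapped between the groups, at 9.28 and 9.77 CPM in DKO against 9.62 and 8.34 in WT. The log2 fold change was 0.08 ± 0.09 (95% interval -0.10 to 0.26, edgeR adjusted p = 0.493). RXRG, the remaining family member, had at most 4 counts in any library and was not tested.

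DHRS3, which reduces retinal back to retinol and is itself induced by retinoic acid, was not called. It lies at chr1:12567910-12618210 on the minus strand and gave 400.8 and 406.0 CPM in DKO and 419.5 and 412.9 in WT. The DKO values lay just below the WT values, with a log2 fold change of -0.05 ± 0.05 (95% interval -0.14 to 0.05, edgeR adjusted p = 0.498).

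CRABP2, the binding protein that delivers retinoic acid to RAR in the nucleus, fell. It lies at chr1:156699606-156705784 on the minus strand and gave 284 and 305 counts in DKO against 548 and 543 in WT. In CPM these were 5.33 and 5.72 against 10.6 in both WT libraries, so the WT level was 1.92-fold that of DKO. The log2 fold change was -0.94 ± 0.10 (95% interval -1.13 to -0.75, edgeR adjusted p = 4.62e-17). It kept its call with each library left out in turn (-0.99 to -0.89), and 5.37% of all tested genes had a larger absolute difference.

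The order of levels among the genes was read as CPM per kb of annotated gene span, a scale that assumes reads along the whole gene. On that scale the WT order was DHRS3 (8.34 and 8.21), OXSM (2.89 and 2.99), TOP2B (2.09 and 2.13), CRABP2 (1.71 and 1.72) and NGLY1 (1.46 and 1.49). RARG, RARA and RXRB followed with ranges that overlapped between 1.15 and 1.32, so they had no order beyond their spread. RXRA came next (0.770 and 0.722) and RARB last (0.000351 and 0.000127). In DKO the order changed at CRABP2, which at 0.863 and 0.926 lay below the lowest RARA value of 1.09 and above RXRA (0.669 and 0.716). RXRB (1.28 and 1.35) and RARG (1.20 and 1.27) were next to each other within their spread, and RARA (1.11 and 1.09) lay below both. In DKO NGLY1, at 1.72 and 1.70, lay next after TOP2B. Lengths of merged exons were not used here.

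The genes whose levels moved most like those of TOP2B over the 4 libraries were RCBTB1, HSCB and SLAIN2, out of 9147 protein-coding genes that averaged at least 3 in log2 CPM. Their Euclidean distances in centred log2 CPM were 0.0031, 0.0053 and 0.0056. For RARB they were NR2F1, AREG and SMAD7, at distances of 0.80, 0.83 and 0.83. The floor on the candidates' level lies above that of RARB, so genes with counts as low as its own were not among them. Over 4 libraries and 9147 candidates, such a search can find close matches for a small difference. Shared regulation was not tested.

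Around TOP2B, 12 genes with spans within 2 Mb were tested, with a median log2 fold change of 0.14. Of these, 5 were called higher and 1 lower, beside 19.0% and 21.1% of all tested genes. The 5 include RARB, which passed the low-count filter only through the DKO libraries, so its place in this count is a description. The number called higher was 4 with no filter, at a minimum of 50 reads or by DESeq2. On chromosome 3 as a whole, 220 of 946 tested genes were called higher and 185 lower, with a median of 0.01. Beyond RARB and NGLY1, the higher genes were NR1D2, NEK10 and SLC4A7, which lie 1442 kb or more from TOP2B. Within 1 Mb only TOP2B, RARB, NGLY1 and OXSM were tested.

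The lower gene was THRB, the thyroid hormone receptor beta and a partner of RXR, which lies 333.6 kb from RARB. It gave 14.4 and 15.8 CPM in DKO and 21.9 and 21.4 in WT, a log2 fold change of -0.52 ± 0.07 (edgeR adjusted p = 2.09e-10). Its antisense neighbour THRB-AS1, with 43 and 35 counts in DKO against 25 and 24 in WT, lay in the other direction (0.62 ± 0.28) and was not called (adjusted p = 0.0642). Their spans overlap, so reads there cannot be told apart without a known strand setting.

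NR1D2, a heme-binding nuclear receptor of the circadian clock, gave 163.2 and 164.8 CPM in DKO and 135.3 and 135.9 in WT (log2 fold change 0.27 ± 0.05, edgeR adjusted p = 1.97e-07). NEK10, a kinase, gave 21.1 and 21.8 CPM against 16.4 and 16.5 (0.38 ± 0.07, adjusted p = 2.01e-06). SLC4A7, a sodium bicarbonate transporter, gave 191.5 and 197.5 CPM against 159.4 and 164.0 (0.27 ± 0.05, adjusted p = 4.66e-07). All 3 had groups without overlap, but so did TOP2B, UBE2E1 and THRB-AS1, which were not called. The share of all tested genes without overlap is not given here. The calls of NR1D2, THRB and NEK10 held with each library left out, and that of SLC4A7 was lost without WT replicate 1 (0.25, adjusted p = 0.064). UBE2E1 (-0.06), NKIRAS1 (-0.03) and RPL15 (-0.02) were not called.

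**Figure D3:**
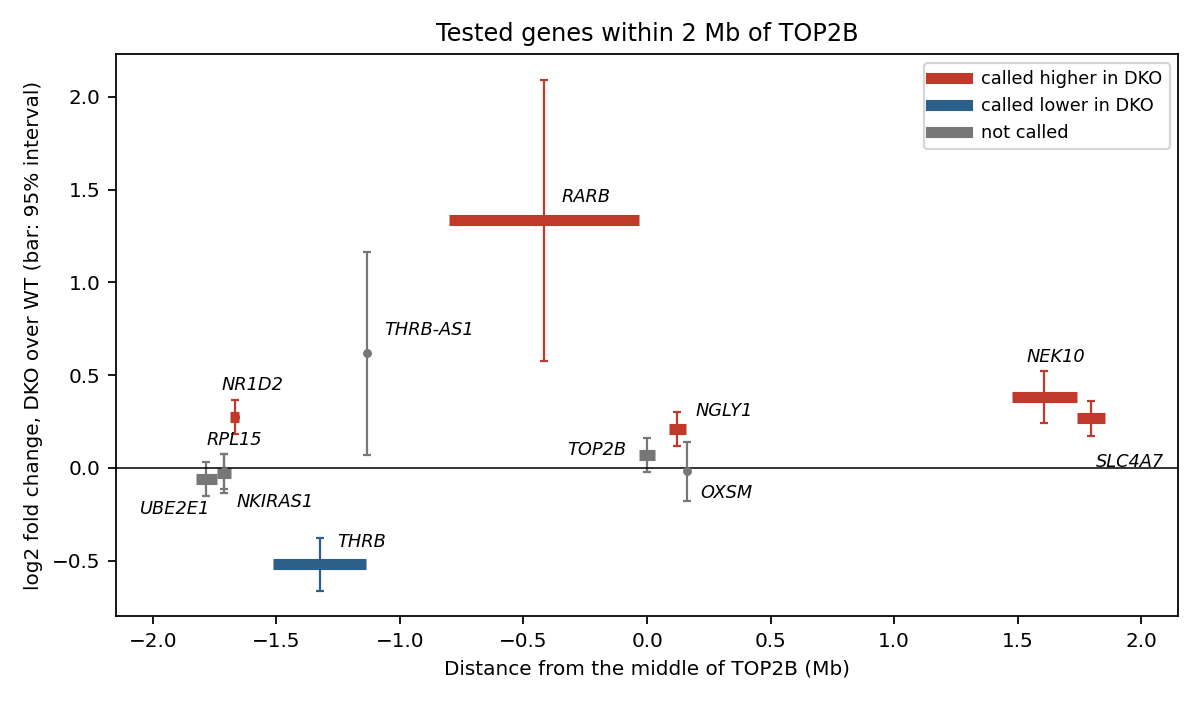
Log2 fold change of DKO over WT with 95% intervals for the 12 tested genes within 2 Mb of TOP2B, against distance from the middle of TOP2B in Mb. Thick bars are gene spans, red for genes called higher, blue for lower and grey for not called. Of the genes, 5 are red, 1 is blue and 6 are grey. The red ones include RARB, which passed the low-count filter only through the DKO libraries.

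A set of 6 retinoid gene lists, chosen by function, was read beside the 10 genes and hold 7 of them. Of 89 listed genes 64 were tested, of which 18 were called higher, 16 lower and 30 not, with a median log2 fold change of 0.00. Of all tested genes, 19.0% were called higher and 21.1% lower, and the counts of each list below are read beside these shares. Among the higher genes, RARB and ALDH1A1 passed the low-count filter only through the DKO libraries. Their place in the count is therefore a description. Without the 7 chosen genes the counts were 17 higher, ALDH1A1 still among them, and 14 lower of 57. The list counts rest on both WT libraries, with 7 higher and 6 lower without WT replicate 1 and 11 and 10 without WT replicate 2. Over all tested genes those fits called 1023 higher and 928 lower, and 1467 and 1650.

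Proteins that take up and carry retinoids were split, with 3 higher and 3 lower of 6 tested and none uncalled. STRA6, the membrane receptor through which cells take up retinol, gave 66 and 65 counts in DKO against 20 and 15 in WT (log2 fold change 1.85 ± 0.27, edgeR adjusted p = 7.99e-10). FABP5, a second carrier of retinoic acid, also rose (0.35 ± 0.06, adjusted p = 4.79e-07), but its call was lost without WT replicate 1 (0.29). With CRABP2, the lipoprotein receptor SCARB1 (-0.35 ± 0.05, adjusted p = 2.55e-11) and RBP7 (-0.26 ± 0.09, adjusted p = 0.0104) fell. The call of RBP7 was lost without DKO replicate 2 (-0.21), WT replicate 1 (-0.25) or WT replicate 2 (-0.27).

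**Figure D4:**
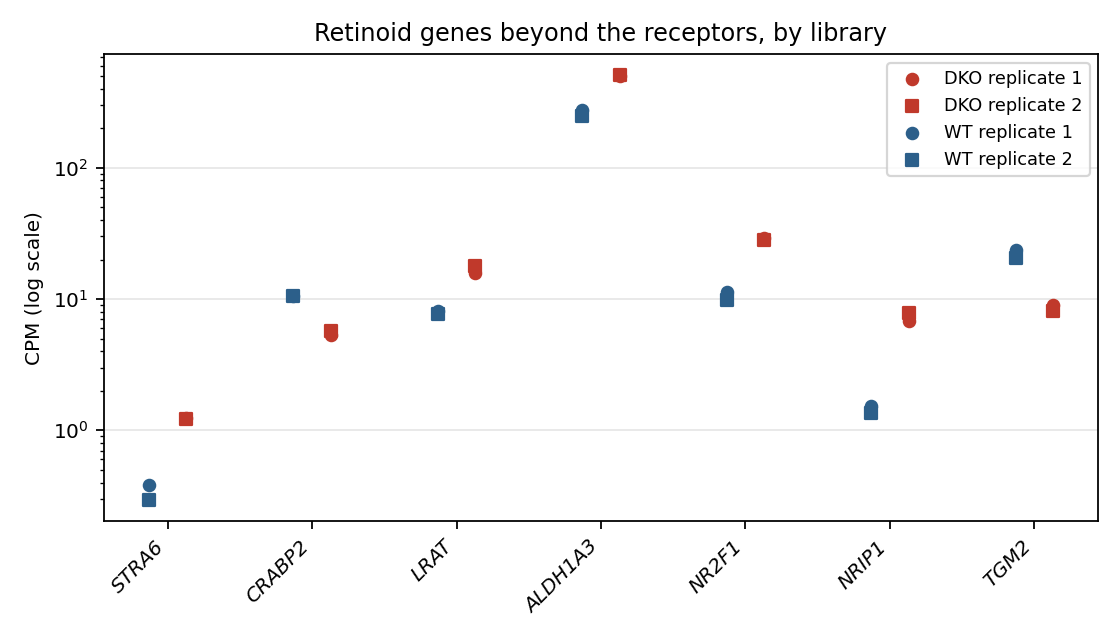
CPM on a log axis of CRABP2 and 6 retinoid genes in each library, WT in blue and DKO in red, circles for replicate 1 and squares for replicate 2. CRABP2 and TGM2 lie lower in DKO and the other 5 higher.

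Among enzymes of retinoid metabolism, 5 were higher and 3 lower of 17 tested, but ALDH1A3 and LRAT alone kept their calls without WT replicate 1. ALDH1A3, which oxidises retinal to retinoic acid, gave 496 and 506 CPM in DKO and 277 and 246 in WT (log2 fold change 0.94 ± 0.05, edgeR adjusted p = 3.37e-43). LRAT, which esterifies retinol for storage, gave 15.9 and 17.9 CPM against 8.16 and 7.73 (1.09 ± 0.09, adjusted p = 7.5e-26). ALDH1A1 had 17 and 15 counts in DKO against 6 and 4 in WT, and passed the low-count filter only through the DKO libraries (1.604 ± 0.48, adjusted p = 0.00418). That call was lost without DKO replicate 1 (1.51, adjusted p = 0.0624), WT replicate 1 (1.91, adjusted p = 0.0771) or WT replicate 2 (1.36, adjusted p = 0.103). ALDH1A2 (0.49 ± 0.11, adjusted p = 0.000162) was called, but not without WT replicate 1 (0.34, adjusted p = 0.165). CYP26B1, which degrades retinoic acid, was not called (0.08 ± 0.09, adjusted p = 0.498). BCO2 fell (-0.43 ± 0.11, adjusted p = 0.000977), but its call was lost without WT replicate 1 (-0.36).

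Genes known as targets of retinoic acid went both ways, with 5 higher and 4 lower of 15 tested, among which RARB, CRABP2 and DHRS3 are members. A further 10 listed targets had at most 9 counts and were not tested. NRIP1, a corepressor of nuclear receptors, was at 6.8 and 7.82 CPM in DKO and 1.52 and 1.35 in WT (log2 fold change 2.34 ± 0.13, edgeR adjusted p = 1.12e-39). NR2F1, an orphan nuclear receptor, was at 29.2 and 28.4 against 11.2 and 9.85 CPM (1.45 ± 0.07, adjusted p = 3.67e-46). TGM2, a transglutaminase, fell from 23.7 and 20.4 CPM in WT to 9.05 and 8.08 in DKO (-1.36 ± 0.08, adjusted p = 3.11e-38). It lies on chromosome 20, where 342 of 430 tested genes were called lower, with a median of -0.59. BHLHE40 fell too (-0.68 ± 0.08, adjusted p = 5.28e-15).

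Partners of RXR gave 1 higher and 3 lower calls of 10 tested. NR4A2, a nuclear receptor that can pair with RXR, rose from 15.4 and 15.5 to 26.4 and 25.2 CPM (0.74 ± 0.07, edgeR adjusted p = 2.16e-19), while THRB, NR4A1 (-0.47 ± 0.08, adjusted p = 7.35e-07) and PPARD (-0.20 ± 0.05, adjusted p = 0.00078) fell. Without WT replicate 1, NR4A1 (-0.36, adjusted p = 0.0755) and PPARD (-0.18, adjusted p = 0.149) were not called, nor was PPARD without WT replicate 2 (-0.22, adjusted p = 0.0803). VDR (0.02) and PPARG (-0.06) were not called, although PPARG was without DKO replicate 2 (-0.13, adjusted p = 0.034). Of 18 coregulators, 7 were higher and 3 lower, with a median of 0.07. Among the called ones other than NRIP1, which is on this list too, the largest difference was a fall in NCOA3 (-0.54 ± 0.05, adjusted p = 9.74e-22). NCOA3 is a coactivator on chromosome 20, where the median of all tested genes was -0.59. Without WT replicate 1, NRIP1 and NCOA3 alone among the called coregulators remained called. The corepressor NCOR1 (0.06) was not called.

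**Figure D5:**
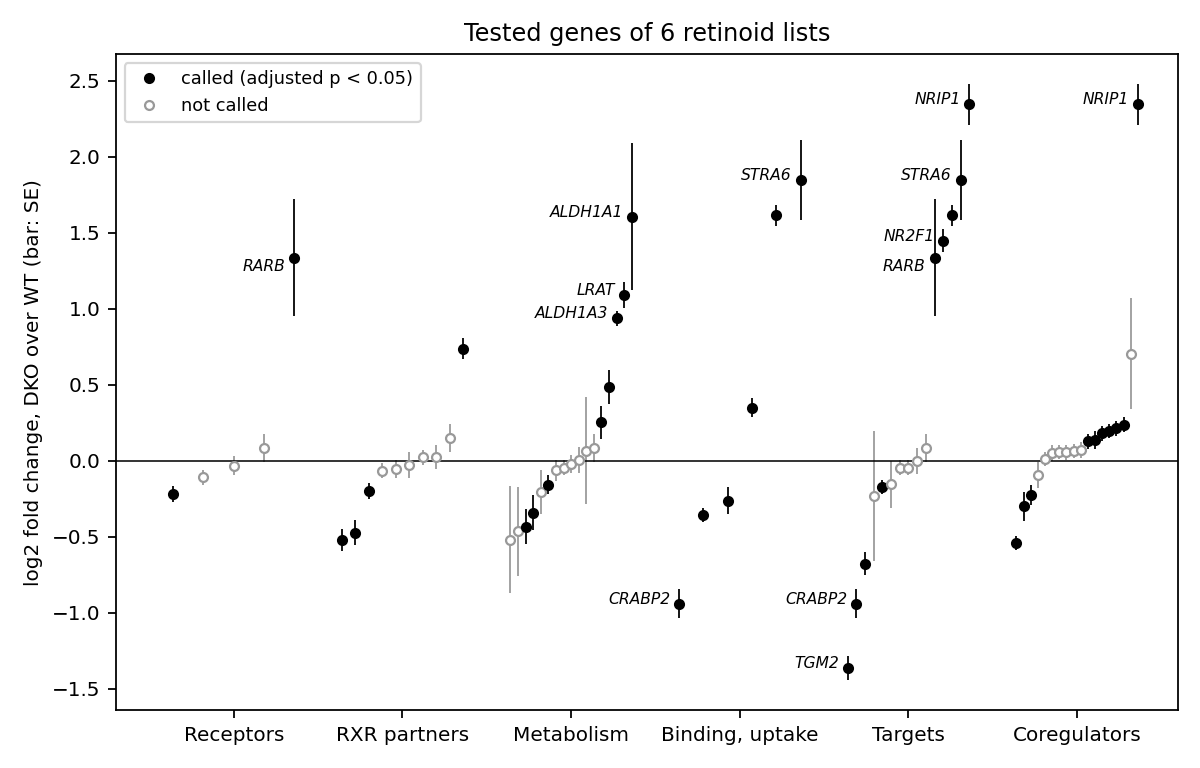
Log2 fold change of DKO over WT with standard errors for the tested genes of 6 retinoid lists, ordered within each list, with filled points for called genes. Every list has called genes on both sides of 0, from NRIP1 at 2.34 to TGM2 at -1.36.

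Markers of cell types were read beside these results, with 19.0% of all tested genes called higher and 21.1% lower. The summed CPM of 9 epithelial markers was 444.1 and 429.9 in DKO and 502.3 and 470.0 in WT. Of 7 tested, 4 were lower, and VIL1 and KRT20 had at most 11 counts. Among the lower ones, CDH1 differed by -0.37 ± 0.05 (edgeR adjusted p = 5.96e-11), and by -0.425 to -0.31 with each library left out. EPCAM (0.04), KRT19 (0.04) and CDX2 (0.19) were not called, although CDX2 was with upper quartile factors (0.22). Neuronal markers summed to 523.4 and 596.8 CPM in DKO and 137.0 and 141.6 in WT, with 2 of 5 tested higher (SNAP25 and SYT1). Nearly all of this sum was SYT1, at 513.1 and 585.8 CPM in DKO against 131.3 and 134.8 in WT. TUBB3 (-0.13), RBFOX3 (0.19) and MAP2 (0.11) were not called, STMN2 had no more than 2 counts and NEFL had 0. Mesenchymal markers summed to 104.0 and 113.1 CPM in DKO and 56.7 and 57.5 in WT, with 3 of 5 tested higher. Most of this sum was ZEB1, at 91.48 and 99.96 CPM in DKO against 50.08 and 50.98 in WT. FN1 (0.29) and COL1A1 (-0.14) were not called. VIM, ZEB2 and PDGFRB had at most 10 counts and COL1A2 had 0. ZEB1 (0.856 to 0.986) and TWIST1 (2.985 to 3.192) kept their calls with each library left out. The genes called higher were ZEB1 (0.92, edgeR adjusted p = 5.25e-42), TWIST1 (3.09, adjusted p = 1.2e-45) and ACTA2 (0.48, adjusted p = 0.00751). The call of ACTA2 among them was lost without DKO replicate 1 (0.42, adjusted p = 0.0681), WT replicate 1 (0.58, adjusted p = 0.0935) or WT replicate 2 (0.39, adjusted p = 0.157). Without WT replicate 1 the epithelial calls of KRT8 (-0.12, adjusted p = 0.282), KRT18 (-0.09, adjusted p = 0.38) and CLDN7 (-0.47, adjusted p = 0.233) were lost. Immune markers summed to between 0.488 and 0.646 CPM in every library, with ranges that overlapped between the groups. The 2 tested immune markers each passed the low-count filter only through the group where they were higher. HLA-DRA was called higher (2.49, edgeR adjusted p = 3.49e-05) and CSF1R lower (-1.72, adjusted p = 0.000302), and both calls were lost without WT replicate 1 (adjusted p = 0.0611 and 0.0597). The part of these markers in the differences of the retinoid genes was not tested.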

How the data were processed

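TTchem-seq libraries of HCT116 cells, 2 DKO and 2 WT by their titles, were analysed. The authors deposited 1 file a library, with raw counts of reads for each Ensembl gene. Per the submitters' processing notes, STAR 2.7.3a, featureCounts 1.6 and build hg38 were used. Neither the strand setting nor the counted feature (exons or gene bodies) is given in the sources used here. All values are shares of a library, without a spike-in, so a change in total transcription would not be seen.

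Symbols were found for 42020 of 60656 IDs and RefSeq spans (GRCh38.p14, the hg38 build) for 40517. The main test was the quasi-likelihood test of edgeR 4.0.16 (R 4.3.3) on the group term alone, with TMM factors and filterByExpr (minimum count 10, minimum total 15), fitted on all 19103 genes and adjusted over them. It was tested on simulated data. The biological coefficient of variation was 3.46%. Libraries of a group differed by more than sampling noise (chi-square per degree of freedom 4.96 in DKO, 4.25 in WT). Per-library CPM used the TMM factors, and error is the standard error of the fit.

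Alternatives were DESeq2 1.42.0 size factors and Wald test, upper quartile factors, total counts, no filter, at least 50 reads in 2 libraries, limma 3.58.1 voom, protein-coding genes only, the replicate block and each library left out, where the 1 library remaining in a group was taken to have the spread of the other group. Same-numbered libraries did not deviate together (r = -0.01 over 10036 genes).

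The genes and lists were chosen with earlier results of these data known. Named were the 10 genes, tested genes within 2 Mb of TOP2B with a mean of at least 1 CPM, up to 4 called and 4 uncalled genes a list, and the 3 genes most like TOP2B and RARB. Not every gene picked by the rule is reported here. THRB-AS1, MIR4442, RARA-AS1, RXRG, VIL1, KRT20, STMN2, NEFL, VIM, ZEB2, PDGFRB and COL1A2 were named outside the rule, after their counts were seen. Protein sequences and exon lengths, planned for description, were not used here. Figures were drawn with matplotlib 3.10.9.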

Additional observations from a re-analysis of the deposited data

How the results depend on the processing

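CRABP2, TOP2B and DHRS3 kept their direction and their side of the threshold under every alternative run. RARB had no adjusted p in the DESeq2 Wald test and was removed by a filter of 50 reads. With no filter beyond 1 read it was 1.33 (adjusted p = 0.197), and leaving out 1 library gave 0.79 to 2.23. Leaving out 1 library gave 0.19 to 0.22 for NGLY1, -0.26 to -0.18 for RARA, -0.158 to -0.0576 for RXRA, -0.0168 to 0.191 for RXRB, -0.0439 to 0.00606 for OXSM and -0.0816 to 0.0166 for RARG. With upper quartile factors OXSM was 0.0163 and RARG 0.00295. Of the 10 genes, 1 was called higher with no filter, 1 with at least 50 reads and 1 by DESeq2, and leaving out 1 library gave 0 to 2 higher and 1 to 3 lower.

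Of all tested genes, 1640 were higher and 1655 lower with no filter, 2479 and 2524 by DESeq2, and 1023 to 3127 and 928 to 3443 with 1 library left out, lowest without WT replicate 1. Upper quartile factors moved the split to 4226 higher and 3328 lower, against 3632 and 4025, and the median of all genes by 0.03. Around TOP2B, leaving out 1 library gave 2 to 5 higher and 1 lower, and genes within 1 Mb gave 2 and 0. The retinoid lists gave 10 higher and 7 lower with no filter, and 7 to 15 and 6 to 15 with 1 library left out.

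With the replicate block, RARB was 1.34, and 2 of the 10 genes were called higher and 2 lower, so it changed no call of the 10. Counts of 5 to 30 limit what can be said of RARB.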

Other observations

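Chromosomes 3 and 17 each hold a thyroid hormone receptor, a retinoic acid receptor, a type II topoisomerase and an NR1D clock receptor as neighbours, and their values were set side by side after they had been seen. On chromosome 17, RARA lies between THRA, 215.3 kb away, and TOP2A. Both NR1D genes were called higher in DKO: NR1D1 gave 897 and 955 counts in DKO against 583 and 521 in WT (log2 fold change 0.70 ± 0.08, edgeR adjusted p = 2.78e-14), beside 0.27 ± 0.05 for NR1D2. The spans of NR1D1 and THRA overlap, so reads there cannot be assigned without a known strand setting. THRB fell (-0.52 ± 0.07), while THRA, at 9.18 and 10.6 CPM in DKO and 8.76 and 9.12 in WT, was not called (0.15 ± 0.09, adjusted p = 0.185). RARB was called higher on few reads and RARA lower, and TOP2A was called higher (0.42 ± 0.05, adjusted p = 3.46e-15) while TOP2B was not called. Differences between members of a pair were not tested.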
